A study of Mus musculus with 6 samples.

Results

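A group of 10 genes was followed in bone marrow derived macrophages that lack AEG-1 and in wild-type ones. They were 6 subunits of the transcription factor AP-1 (Fos, Fosb, Fosl2, Jun, Junb and Jund) and 4 other immediate-early genes (Egr1, Egr2, Nr4a1 and Ier2). The 10 were taken by name, matched by symbol among the 46983 gene identifiers of the count table, and all 10 were among the 16115 genes that passed the filter on low counts. The macrophages were grown from femoral marrow of C57BL/6 mice for 7 days with 20% L929 conditioned medium, a source of macrophage growth factor, and 10% heat-inactivated serum. Neither genotype received a treatment, so the values are resting levels in culture and no stimulus was compared. There were 3 libraries of wild-type cells (WT) and 3 of AEG-1 knockout cells (AEG-1 KO); Mtdh encodes AEG-1 (astrocyte elevated gene-1). The labels give neither the kind of Mtdh allele, the age or sex of the mice, nor whether each replicate is an animal or a culture of its own, so the replicate spread behind every p-value may be technical.

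AP-1 is a dimer. A Fos-family protein must pair with a Jun-family protein to bind DNA, whereas Jun proteins can also pair with each other. Immediate-early genes are transcribed within minutes of a growth factor or danger signal without new protein synthesis, through the MAP kinases, serum response factor with its Elk partners, and CREB. Their transcripts are short-lived, and in macrophages they precede the cytokine and protease genes that AP-1 helps to switch on. Egr1 and Egr2 are zinc finger factors linked to macrophage differentiation, Nr4a1 is an orphan nuclear receptor needed for patrolling monocytes, and Ier2 is a small nuclear protein induced with them.

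Read totals were 42548170 to 58947230 counts per library. Mtdh itself stood at 262 ± 9.97 CPM (read counts scaled to library size with TMM factors; SD, n = 3) in WT and 0.395 ± 0.106 in AEG-1 KO, as the genotype labels say. The 8 macrophage markers summed to 17670 to 18155 CPM in WT and 18156 to 18837 in AEG-1 KO, against 55.1 to 58.1 and 80.7 to 84.6 CPM for the 6 monocyte markers. In bulk RNA, fewer cells of a type and less RNA per cell cannot be told apart. Within each genotype the libraries differed along the GC content of transcripts: among the 43 genes of at least 65% GC, the median level in WT replicate 1 was 1.11 log2 units above WT replicate 3, and in AEG-1 KO replicate 3 it was 0.66 above AEG-1 KO replicate 1. CPM and log2 fold changes of the GC-rich members are therefore given with and without this trend, whereas levels per kilobase keep it.

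The 10 genes spanned a wide range of resting levels. Scaled by the length of all annotated exons, Junb stood highest in WT at 61.1 ± 28.0 CPM per kilobase (SD, n = 3), with Fos next at 52.0 ± 4.16. The ranges of these 2 genes overlapped, so their order is not resolved. Jun followed at 29.2 ± 4.76 and Jund at 17.4 ± 7.59 CPM per kilobase. Ier2 at 6.81 ± 2.36, Fosl2 at 4.32 ± 0.0537 and Egr1 at 3.02 ± 0.299 formed a middle tier. Nr4a1 at 1.10 ± 0.180 and Egr2 at 0.796 ± 0.0272 CPM per kilobase were low, and Fosb at 0.146 ± 0.112 was the lowest. The order of the means was the same in AEG-1 KO, from Junb at 68.1 ± 20.2 and Fos at 62.8 ± 3.12 to Fosb at 0.153 ± 0.0480 CPM per kilobase. In both genotypes Junb and Fos were the one pair of neighbours whose libraries overlapped, although the lowest WT value of Jun (26.0) was close to the highest of Jund (25.8). These levels are per length of the exon union, which understates a gene with long alternative exons.

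**Figure D1:**
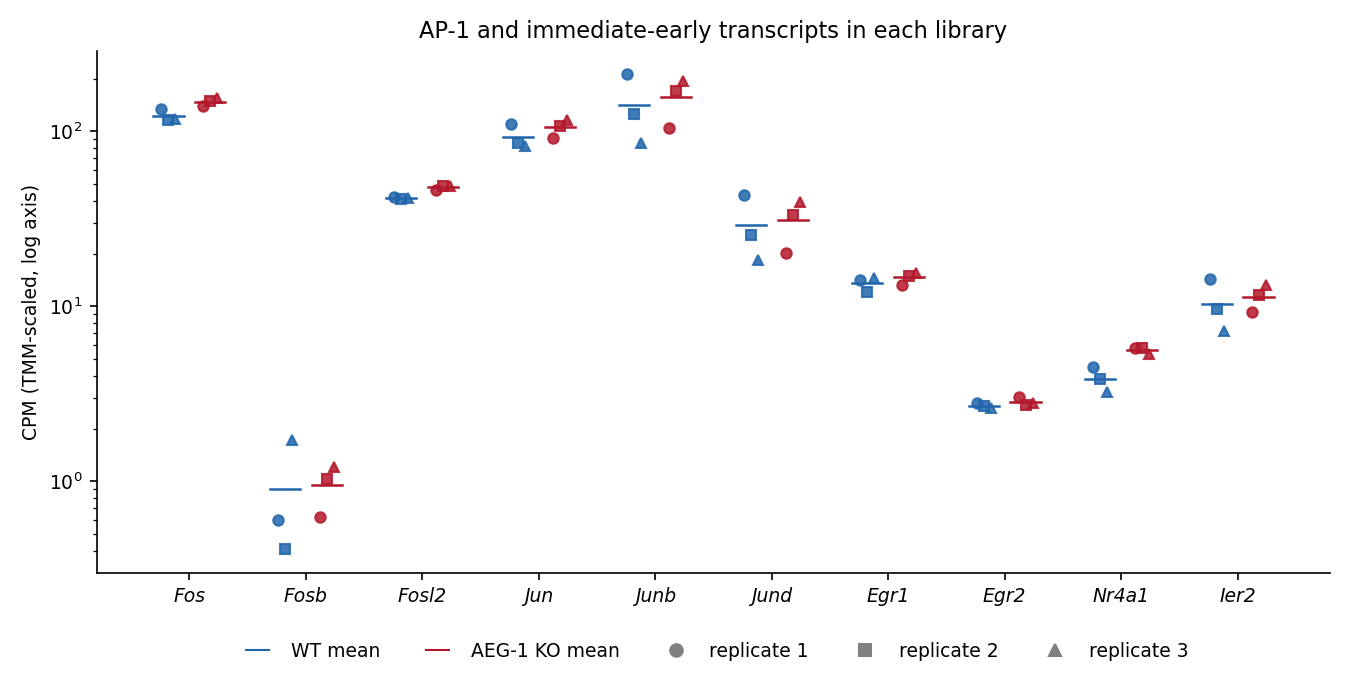
TMM-scaled CPM of each of the 10 genes on a log axis, with 1 point per library for WT and AEG-1 KO and the group means. Fos, Fosl2 and Nr4a1 have all 3 AEG-1 KO points above all 3 WT points, whereas the points of Junb, Jund and Ier2 are widely spread within each genotype.

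Between genotypes, Fos, Fosl2 and Nr4a1 rose modestly in AEG-1 KO, and no member fell. These 3 of 10 members passed an adjusted p of 0.05 in edgeR's quasi-likelihood test, where 6.35% of all tested genes were called in either direction, 3.31% as higher and 3.04% as lower. They were also the 3 members with an unadjusted p under 0.05, against 21.6% of all genes. The members were chosen with earlier results of these data known, so such shares are descriptions. The count of falls was 0 also at an unadjusted p of 0.05 and in DESeq2 and limma-voom, which each called 3 members as higher. The same 3 members were those whose libraries did not overlap between genotypes, against 26.8% of all genes in either direction, 13.9% with AEG-1 KO higher and 12.9% with it lower. The log2 fold change was above 0 for 10 of 10 members and for 53.1% of all tested genes, and its median was 0.15 against 0.01. For 7 members that sign came with an interval that held 0, and for Fosb, Junb, Jund and Ier2 it turned when 1 library was left out. The count of 3 fell to 2 without WT replicate 1, to 1 without WT replicate 3, and to 0 without WT replicate 2 or any 1 of the 3 AEG-1 KO libraries.

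**Figure D2:**
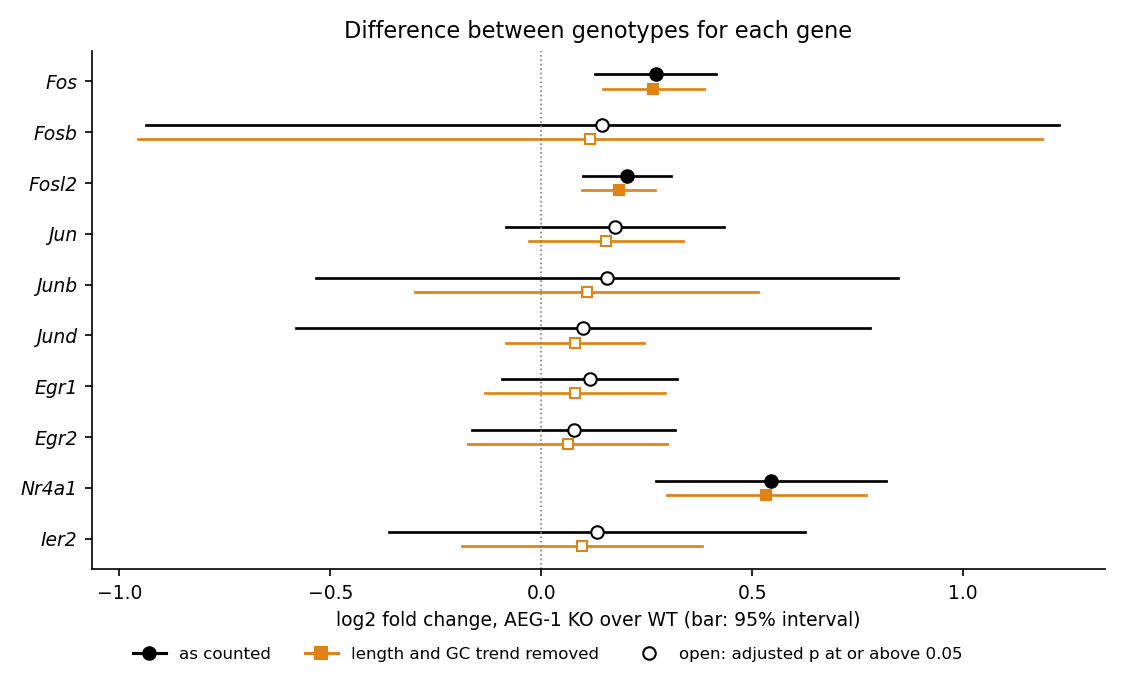
Log2 fold change between genotypes (positive where AEG-1 KO is higher) of each gene with its 95% interval, from the counts as deposited (black circles) and after a smooth trend on transcript length and GC content was removed (orange squares); filled symbols have an adjusted p under 0.05. Fos, Fosl2 and Nr4a1 are filled in both, and the Junb, Jund and Ier2 intervals are shorter once the trend is removed.

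Fos, the founding Fos-family subunit (chr12:85473890-85477273 on the plus strand, GRCm38), was read at 134, 116 and 117 CPM in WT replicates 1 to 3 and at 139.9, 148 and 155 CPM in AEG-1 KO replicates 1 to 3. All AEG-1 KO libraries lay above the highest WT library. The means were 122 ± 9.79 and 148 ± 7.34 CPM (SD, n = 3), a log2 fold change of 0.27 ± 0.06 (SE; 95% interval 0.13 to 0.41) with an adjusted p of 0.0381, or 1.21-fold. The call was lost when the library left out was WT 2 (0.154), WT 3 (0.0606), AEG-1 KO 1 (0.0523), AEG-1 KO 2 (0.139) or AEG-1 KO 3 (0.112); the numbers are replicates and the parentheses hold the adjusted p. The log2 fold change over all 6 fits that left out a library was 0.23 to 0.33.

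Fosl2, also called Fra-2, encodes a Fos-family subunit that lacks the strong activation domain of Fos (chr5:32135801-32157842 on the plus strand). Its CPM was 42.3, 41.2 and 41.9 in WT and 46.5, 48.7 and 49.0 in AEG-1 KO. Replicates were close together and the genotypes did not overlap. Its log2 fold change was 0.20 ± 0.05 (0.10 to 0.31; adjusted p = 0.0348), or 1.15-fold. Its spread between replicates was at the 8.93 percentile among 2217 genes of like level, where a low percentile means alike replicates. Leaving out any 1 of the 6 libraries lost that call, with adjusted p of 0.0543 (without WT replicate 3) to 0.171 (without AEG-1 KO replicate 2), while the log2 fold change stayed between 0.18 and 0.22.

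Fosb, whose product and its truncated form are best known from sustained neuronal activity (chr7:19302696-19310051 on the minus strand), had few reads. Its 24 to 74 counts per library gave 0.604, 0.410 and 1.71 CPM in WT and 0.621, 1.03 and 1.21 in AEG-1 KO. The highest and the lowest library were both WT. The log2 fold change of 0.14 ± 0.48 had an interval of -0.94 to 1.23 (adjusted p = 0.904). Changes of nearly 1 log2 unit in either direction lie within it. Its spread between replicates was at the 99.1 percentile of 1171 genes of like level.

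Nr4a1 had the largest difference of the 10. The gene (chr15:101254269-101274795 on the plus strand) was read at 4.5, 3.83 and 3.24 CPM in WT and 5.79, 5.78 and 5.31 in AEG-1 KO, from 140 to 224 and 238 to 261 counts. The lowest AEG-1 KO library was above the highest WT library, and the AEG-1 KO libraries were the closer together. The means were 3.85 ± 0.631 and 5.63 ± 0.273 CPM, a log2 fold change of 0.54 ± 0.12 (0.27 to 0.82; adjusted p = 0.0311), or 1.46-fold. The call was lost when the library left out was WT 2 (0.118), AEG-1 KO 1 (0.0922), AEG-1 KO 2 (0.120) or AEG-1 KO 3 (0.0577). It held without WT replicate 1, at an adjusted p of 0.0121, and narrowly without WT replicate 3, at 0.0499. Nr4a1 lies on chromosome 15, as does Mtdh, at a distance of 67.1 Mb.

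The sequences before the transcription starts of Fos and Nr4a1 are shown because these 2 genes rose and are textbook targets of CREB, and that of Junb because it had the highest mean level per length and did not pass the test. Each is the 250 bases before the RefSeq start (GRCm38.p6), 5′ to 3′ on the gene's strand, with TGACG or its complement CGTCA, the core of the cyclic AMP response element, and TATAAA in capitals.
Fos, chr12:85473640-85473889 (+): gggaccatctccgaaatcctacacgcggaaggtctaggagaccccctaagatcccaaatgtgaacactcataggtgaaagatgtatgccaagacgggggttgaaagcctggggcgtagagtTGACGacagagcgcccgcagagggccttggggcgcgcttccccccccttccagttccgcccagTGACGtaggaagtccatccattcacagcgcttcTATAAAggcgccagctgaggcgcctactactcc
Nr4a1, chr15:101266596-101266845 (+): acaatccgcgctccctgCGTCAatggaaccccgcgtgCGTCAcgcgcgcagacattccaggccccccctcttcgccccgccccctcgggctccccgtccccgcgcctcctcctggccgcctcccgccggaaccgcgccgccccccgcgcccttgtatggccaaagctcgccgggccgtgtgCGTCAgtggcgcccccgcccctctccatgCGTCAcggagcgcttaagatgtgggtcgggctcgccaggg
Junb, chr8:84978749-84978998 (-): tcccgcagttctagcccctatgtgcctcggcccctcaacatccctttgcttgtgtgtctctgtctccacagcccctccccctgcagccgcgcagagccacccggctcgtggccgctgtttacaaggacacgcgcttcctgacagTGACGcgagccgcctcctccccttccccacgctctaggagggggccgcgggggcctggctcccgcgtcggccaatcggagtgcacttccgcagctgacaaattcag
No annotated exon overlapped these windows, and the Nr4a1 start used here lies 12577 bases into the GENCODE gene.

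Fos had TGACG at 129 and 66 bases before its start and a TATAAA close to it. Nr4a1 had 4 matches, at 233, 213, 69 and 40 bases, all read as CGTCA on the strand shown. Junb had 1, at 106 bases. Over all 32851 RefSeq windows of the same length, 17.8% held TGACG on either strand, 3.90% held at least 2 and 0.137% at least 4 matches, and 12.4% held TATAAA. These shares were not matched for GC content. The windows of Fos, Nr4a1 and Junb held 58.4%, 74.4% and 66.4% G or C, against a median of 52.4% over all windows. Of the 8 members with a window, Jun, Jund and Fosl2, which also rose, had no TGACG. The starts used for Jund and Fosl2 lie 1210 and 671 bases from the start of the GENCODE gene. Annotated exons overlap the Fosl2 window, so for these 2 genes the absence holds for the window used only. Fosb had 1, and the alternative starts of Egr2 had 0 or 2. The full element TGACGTCA (1.55% of windows), the AP-1 element TGACTCA (4.46%) and the Nr4a site AAAGGTCA (1.34%) were in none of the 8. The Egr site GCGGGGGCG (2.57% of windows) was in Fosb, Fosl2 and Nr4a1, and the CArG box, the core of the serum response element (1.47%), was in 4 of the 5 Egr2 windows. TGACG is contained in TGACGTCA, and all motifs were sought on both strands. A match describes these letters only. Variant spellings and sites further upstream than the windows were not sought. The Jun window holds TGACATCA, for example, which was not among the motifs sought. The absence of a motif therefore holds for these letters in these windows only, in Fos and Jun as in the others. Egr1 and Ier2 had no entry.

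Neither Egr gene passed the test. Egr1 (chr18:34859823-34864984 on the plus strand) was read at 14.1, 12 and 14.5 CPM in WT and 13.3, 15.0 and 15.6 in AEG-1 KO, with overlapping groups and a log2 fold change of 0.11 ± 0.09 (-0.09 to 0.32; adjusted p = 0.527). Egr2 (chr10:67535475-67542188 on the plus strand) was read at 2.80, 2.70 and 2.61 CPM in WT and 3.02, 2.72 and 2.81 in AEG-1 KO, the most even values of the 10 genes over all 6 libraries. Its log2 fold change of 0.08 ± 0.11 had an interval of -0.16 to 0.32 (adjusted p = 0.736), so that a rise as large as that of Nr4a1 lies outside it.

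None of the 3 Jun-family genes passed the test. Jun (chr4:95049034-95052222 on the minus strand), the founding Jun protein and the usual partner of Fos, was read at 111, 86.4 and 82.8 CPM in WT and 92.2, 108 and 116 in AEG-1 KO. The groups overlapped. Its log2 fold change was 0.17 ± 0.11 (-0.08 to 0.43; adjusted p = 0.428). Junb (chr8:84974484-84978718 on the minus strand), a weaker activator that can oppose Jun, was read at 211, 125 and 85.4 CPM in WT and 105, 171 and 194 in AEG-1 KO. WT replicates 1 and 3, with the same genotype and culture, were the highest and the lowest of all 6 libraries and differed 2.48-fold. The log2 fold change between genotypes was 0.16 ± 0.31 (-0.53 to 0.85; adjusted p = 0.822), smaller than that spread. Jund (chr8:70698949-70700616 on the plus strand), the Jun protein present in resting cells, had the same order of libraries, with 43.1, 25.6 and 18.5 CPM in WT and 20.3, 33.3 and 39.7 in AEG-1 KO. Its log2 fold change was 0.10 ± 0.30 (-0.58 to 0.78; adjusted p = 0.893).

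The spread of Junb between replicates was at the 99.8 percentile of 1309 genes of like level, and that of Jund at the 99.8 percentile of 2194. Jun stood at the 97.5 percentile and Ier2 at the 99.2, whereas Egr2, at 3.63, varied less between replicates than nearly all genes of its level. Part of the Jun, Junb and Jund exons overlaps a gene on the opposite strand, and the strand setting of the counting is not given in the sources used here, which makes these 3 uncertain. Jun shares 232 bases with Junos (51 to 67 counts), Junb 173 bases with Prdx2 (6487 to 9589 counts), and Jund 877 bases with Gm11175, which has a count of 0 in all 6 libraries.

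As counted, with the length and GC trend left in, the make-up of the AP-1 transcript pool moved with Junb. Junb is itself part of the pool, so the other shares fall when it rises. The highest and lowest Junb libraries differed 2.48-fold in WT and 1.85-fold in AEG-1 KO. With the trend removed these ratios were 1.72-fold and 1.48-fold. The sums and shares below keep the trend. Per length, the 6 subunits summed to 214, 150.5 and 129 CPM per kilobase in WT and 151, 196 and 216 in AEG-1 KO. Fos-family genes made up 28.7%, 35.7% and 42.3% of that sum in WT and 42.7%, 34.8% and 32.9% in AEG-1 KO, a mean of 35.6 ± 6.83% against 36.8 ± 5.17% (SD, n = 3). Junb made up 43.0%, 36.1% and 28.9% in WT and 30.1%, 37.9% and 39.1% in AEG-1 KO. The difference between genotypes was smaller than that between replicates of either one. Fos took between 26.6% and 39.4% of the pool in each library, and Fosb at most 0.213%.

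**Figure D3:**
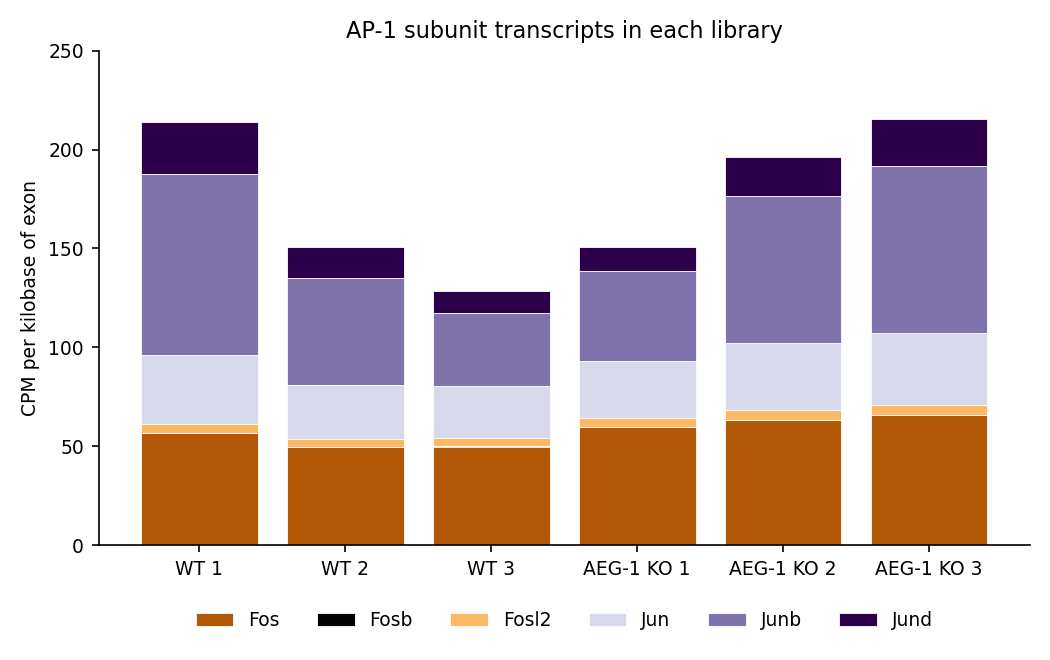
CPM per kilobase of exon of the 6 AP-1 subunits, stacked in 1 bar for each library and starting at 0, with the length and GC trend left in. Junb is the largest block in WT replicates 1 and 2 and in AEG-1 KO replicates 2 and 3, and Fos is the largest in WT replicate 3 and AEG-1 KO replicate 1; Fosb is too small to see.

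Ier2 (chr8:84661331-84662852 on the minus strand) did not pass the test either. It was read at 14.3, 9.62 and 7.21 CPM in WT and 9.25, 11.6 and 13.3 in AEG-1 KO, in the same order of libraries as Junb and Jund. Its log2 fold change was 0.13 ± 0.22 (-0.36 to 0.62; adjusted p = 0.783), and WT replicates 1 and 3 differed 1.98-fold.

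Junb, Jund and Ier2 are rich in G and C, and the 60-base coding windows with the highest GC content in each are shown, with that of Fos for comparison, because the variation between libraries moved with this property. They come from the GENCODE M21 transcripts (GRCm38), 5′ to 3′, with each G or C in capitals. Each window lies within exon 1.
Jund, chr8:70699133-70699192 (+): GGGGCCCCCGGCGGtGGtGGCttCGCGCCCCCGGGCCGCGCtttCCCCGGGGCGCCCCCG
Junb, chr8:84977927-84977986 (-): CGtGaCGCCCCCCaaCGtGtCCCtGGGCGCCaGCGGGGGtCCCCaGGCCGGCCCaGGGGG
Ier2, chr8:84662131-84662190 (-): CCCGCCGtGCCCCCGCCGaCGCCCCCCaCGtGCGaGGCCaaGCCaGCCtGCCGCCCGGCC
Fos, chr12:85474059-85474118 (+): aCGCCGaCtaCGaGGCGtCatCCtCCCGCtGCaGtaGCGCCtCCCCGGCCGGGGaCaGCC
In these windows 53, 49, 51 and 44 of 60 bases are G or C. The whole coding sequences hold 70.7% (Jund), 64.8% (Junb), 64.6% (Ier2) and 58.6% (Fos) G or C. Over the longest transcript the GC content is 67.1% for Jund, 62.6% for Junb, 60.9% for Ier2 and 51.9% for Fos, against a median of 49.2% over the tested genes.

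WT replicate 1 exceeded WT replicate 3 by 1.31 log2 units for Junb, 1.22 for Jund and 0.98 for Ier2, and AEG-1 KO replicate 3 exceeded replicate 1 by 0.89, 0.97 and 0.52. Genes of like GC content and length moved the same way by less. Their medians were 0.42 and 0.27 for the 129 genes like Junb, 0.77 and 0.49 for the 14 like Jund, and 0.36 and 0.23 for the 205 like Ier2. Over all genes, the median difference between WT replicates 1 and 3 went from -0.10 in the 4324 genes under 45% GC to 0.46 in the 482 genes of 60% to 65%. Across the 10 members, GC content and the size of the difference without its sign had a Spearman rho of 0.59 in WT and 0.73 in AEG-1 KO. Over the 16056 tested genes with a GC value, rho with the signed difference was 0.53 and 0.41, which is a different measure. Points within a pair of libraries share their depth and preparation, so these are descriptions. Jun, Junb, Jund and Ier2 each have a coding transcript with 1 exon. Among genes of 60% to 65% GC, the median WT difference was 0.45 for the 23 genes of 1 exon, 0.44 for 192 genes of 2 to 8 exons and 0.46 for 215 genes of 9 or more. At 50% to 55% GC it was 0.14 for the 67 genes of 1 exon, 0.063 for 1446 genes of 2 to 8 and 0.047 for 1693 genes of 9 or more, and the AEG-1 KO difference was 0.088, 0.050 and 0.013. Fosb moved the other way in WT, by -1.44, at its low count.

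**Figure D4:**
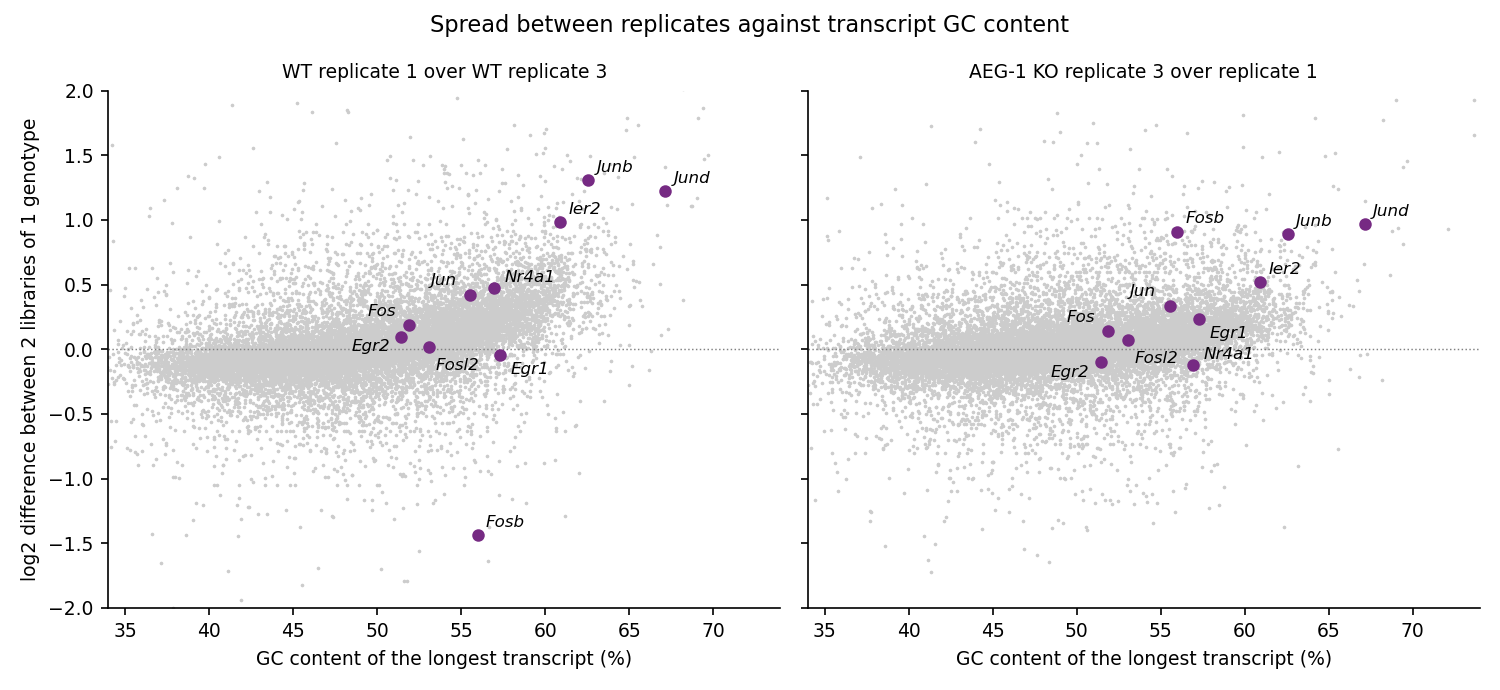
Log2 difference between WT replicates 1 and 3 (left) and between AEG-1 KO replicates 3 and 1 (right) against the GC percentage of the longest transcript, for all tested genes (grey) with the 10 members marked. The axes run from 34% to 74% GC and to 2 log2 units on either side of 0, which leaves 54 and 43 of 16056 genes undrawn; the cloud bends upward at high GC, and Junb, Jund and Ier2 lie at that end.

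With a smooth trend on length and GC content removed from each library, Jund became even, at 29.2, 28.7 and 25.6 CPM in WT and 28.1, 27.5 and 32.9 in AEG-1 KO. Its highest and lowest libraries then differed 1.14-fold in WT and 1.19-fold in AEG-1 KO, where they had differed 2.33-fold and 1.96-fold. Its log2 fold change was 0.08 ± 0.07 (-0.08 to 0.24; adjusted p = 0.531), so a genotype difference of more than 0.24 log2 units lies outside the interval on that scale. Junb kept more of its spread, at 181, 129 and 105 CPM in WT and 115, 164 and 169.7 in AEG-1 KO, a log2 fold change of 0.11 (-0.30 to 0.51; adjusted p = 0.758). Ier2 stood at 12.6, 9.72 and 8.54 and 9.88, 11.4 and 11.9 CPM, with a log2 fold change of 0.10 (-0.19 to 0.38; adjusted p = 0.679). Fos, Fosl2 and Nr4a1 kept log2 fold changes of 0.27, 0.18 and 0.53, with adjusted p of 0.00894, 0.0116 and 0.00816. They were the 3 of 10 members called, where 14.3% of all genes were called in either direction and 6.11% as higher. What made the libraries differ along GC content was not tested.

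Around the 10 members, 7 lists of partners, activators, inhibitors and targets held genes that moved in both directions. Of their 108 genes, 103 were tested, 8 rose and 8 fell, so that 15.5% were called where 6.35% of all genes were. At an unadjusted p of 0.05 it was 37 of 103 (35.9%) against 21.6%. The lists were chosen with earlier results of these data known, so these shares are descriptions and not a test. The median log2 fold change over these 103 was 0.03 against 0.01. Among the 8 AP-1 dimer partners (Batf and Atf proteins and their kin) the median was -0.07 and edgeR called only Batf, a leucine zipper protein that pairs with Jun proteins; DESeq2 called 2 as lower. Batf fell from 79.1 ± 7.80 to 58.4 ± 3.16 CPM, without overlap, a log2 fold change of -0.44 ± 0.07 (adjusted p = 0.00909), and the call held without any 1 library. Among 24 kinases and factors that switch immediate-early genes on, 1 was called, Map2k3, the kinase that activates p38. Map2k3 was at 57.9 to 60.7 CPM in WT and 70.7 to 74.1 in AEG-1 KO, a log2 fold change of 0.27 ± 0.04 (adjusted p = 0.00785), which also held without any 1 library. The list's median was 0.02. With the replicate number as a block in the fit, neither Batf (adjusted p = 0.0835) nor Map2k3 (0.108) was called.

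Of 9 relatives of Egr, Nr4a and Ier genes and Egr corepressors, 7 were tested and edgeR called 0. Over all tested genes it called 6.35%, and 21.6% had an unadjusted p under 0.05. Of the 7, 1 was higher and 0 lower at an unadjusted p of 0.05, and DESeq2 and limma-voom called 0. Nr4a3, the close relative of Nr4a1, was at 0.537, 0.547 and 0.486 CPM in WT and 0.666, 1.08 and 0.669 in AEG-1 KO, without overlap, with a log2 fold change of 0.60 ± 0.25 and an adjusted p of 0.195. Ier5 had a log2 fold change of 0.10 ± 0.07 (adjusted p = 0.509). Of 14 feedback inhibitors of MAP kinase signalling, which dampen the input to these genes, 12 were tested and edgeR, DESeq2 and limma-voom called 0, with 3 higher and 2 lower at an unadjusted p of 0.05. The 2 with the smallest p were the phosphatase Dusp2, at -0.25 ± 0.09 (adjusted p = 0.137), and Spred2, an inhibitor of Ras signalling, at -0.13 ± 0.04 (adjusted p = 0.134). With the length and GC trend removed, edgeR called 1 of the 12 higher and 1 lower, the latter being Spred2 (-0.15, adjusted p = 0.0280). Spry1, Spry4, Egr4 and Ier5l did not pass the filter on low counts.

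Of 28 other immediate-early genes 4 rose (14.3%) and 0 fell, where 3.31% of all tested genes were called as higher and 3.04% as lower. The count lower was 0 also at an unadjusted p of 0.05 and in DESeq2 and limma-voom. It was not 0 in every fit. With the length and GC trend removed 7 were called higher and 2 lower, and without WT replicate 3 it was 4 higher and 1 lower. The median log2 fold change was 0.06. Ccn2, a secreted matrix protein also called connective tissue growth factor, was at 2.22, 1.5 and 2.50 CPM in WT and 3.91, 5.28 and 4.20 in AEG-1 KO, a log2 fold change of 1.13 ± 0.19 (adjusted p = 0.00832). Its relative Ccn1 was at 0.761, 0.547 and 0.578 and 1.15, 1.39 and 1.18 CPM, a log2 fold change of 0.99 ± 0.19 (adjusted p = 0.0166). Both are also made by stromal cells, and the 8 stromal or endothelial markers summed to 10.5 to 12.3 CPM in WT and 15.1 to 17.2 in AEG-1 KO, with 3 of 8 called higher; their part in the Ccn1 and Ccn2 values was not tested. The antiproliferative gene Btg1 (0.26 ± 0.05; adjusted p = 0.0174) and Klf10, a zinc finger repressor induced by TGF-beta (0.22 ± 0.04; adjusted p = 0.0172), rose as well. Ccn2 shares 665 bases with an opposite-strand transcript and is uncertain. Klf10 lies 4.15 Mb from Mtdh on chromosome 15. Calls were lost for Ccn1 without WT 2 (0.0933) or AEG-1 KO 2 (0.0790), for Btg1 without WT 2 (0.0718), AEG-1 KO 1 (0.0587), AEG-1 KO 2 (0.122) or AEG-1 KO 3 (0.0510), and for Klf10 without WT 2 (0.0979), AEG-1 KO 1 (0.0607) or AEG-1 KO 2 (0.127), with adjusted p in parentheses.

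Of 15 genes known as AP-1 targets, 3 rose and 3 fell, with a median log2 fold change of 0.09. Of all tested genes, 3.31% were called as higher and 3.04% as lower. Spp1, which encodes osteopontin, rose from 581 ± 11.2 CPM (SD, n = 3) to 699.6 ± 19.0 CPM (0.27 ± 0.04; adjusted p = 0.00453). Plau, the urokinase protease, rose from 33.6 ± 1.73 CPM to 42.6 ± 0.889 CPM (0.34 ± 0.05; adjusted p = 0.00645). In the other direction, the gelatinase Mmp9 fell from 51.0 ± 3.91 CPM to 38.0 ± 1.53 CPM (-0.42 ± 0.06; adjusted p = 0.00552). Acp5, the tartrate-resistant acid phosphatase of osteoclasts and macrophages, fell from 131 ± 8.80 CPM to 102 ± 3.57 CPM (-0.37 ± 0.06; adjusted p = 0.00596). None of these 4 overlapped between genotypes, where 26.8% of all tested genes did not overlap in either direction. Each held its call without any 1 library. The 4 were picked by smallest adjusted p, so both traits follow in part from the pick. With the replicate number as a block in the fit, 0 of the 15 were called. Cd44, an adhesion receptor, was the other gene that rose and the cytokine Tnf the other that fell; these 2 are named after their values were seen. Acp5 shares 137 bases with an opposite-strand transcript and is uncertain for the reason given for Jun. Spp1 shares 309 bases with Gm42793 (30 to 39 counts) on the same strand, an overlap that no strand setting resolves.

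Heat shock genes were listed because stress of handling induces them together with immediate-early genes. Of 10, 9 were tested, 4 fell and 0 rose, where 3.04% of all tested genes were called as lower and 3.31% as higher. The count higher was also 0 at an unadjusted p of 0.05 and in DESeq2 and limma-voom. The median log2 fold change was -0.20. The 5 not called were Hspa1a (0.16, adjusted p = 0.711), Hspa1b (0.06, 0.936), Dnajb1 (-0.06, 0.635), Hsph1 (-0.19, 0.0874) and Hsp90aa1 (-0.20, 0.137). Whether handling differed between genotypes was not tested. The chaperones that fell were Hspa8 (-0.21 ± 0.04; adjusted p = 0.0174), Hspe1 (-0.32 ± 0.08; 0.0375), Hspd1 (-0.23 ± 0.06; 0.0463) and Dnaja1 (-0.20 ± 0.05; 0.0475). The count was 2 with upper-quartile scaling, where Hspd1 and Dnaja1 had adjusted p of 0.0554 and 0.0574, and 2 with no scaling factors, at 0.0587 and 0.0615. Hspa8, the constitutive Hsp70, was the most abundant of these, at 1539 to 1634 CPM in WT and 1337 to 1399 in AEG-1 KO. Calls were lost for Hspa8 without WT 2 (0.0861), AEG-1 KO 2 (0.0868) or AEG-1 KO 3 (0.0586), for Hspe1 without WT 2 (0.145), WT 3 (0.0552), AEG-1 KO 2 (0.128) or AEG-1 KO 3 (0.0916), for Hspd1 without WT 2 (0.133), WT 3 (0.0838), AEG-1 KO 1 (0.0607), AEG-1 KO 2 (0.142) or AEG-1 KO 3 (0.120), and for Dnaja1 without WT 2 (0.180), WT 3 (0.0838), AEG-1 KO 1 (0.0978), AEG-1 KO 2 (0.127) or AEG-1 KO 3 (0.128). Hspd1 and Hspe1 share a divergent start and 112 overlapping bases on opposite strands, and Dnaja1 overlaps Smu1 by 608 bases, which makes these 3 uncertain. Hspa8 shares 86 to 90 bases with each of Snord14c, Snord14d and Snord14e on the same strand, which had counts of 0 in all 6 libraries.

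**Figure D5:**
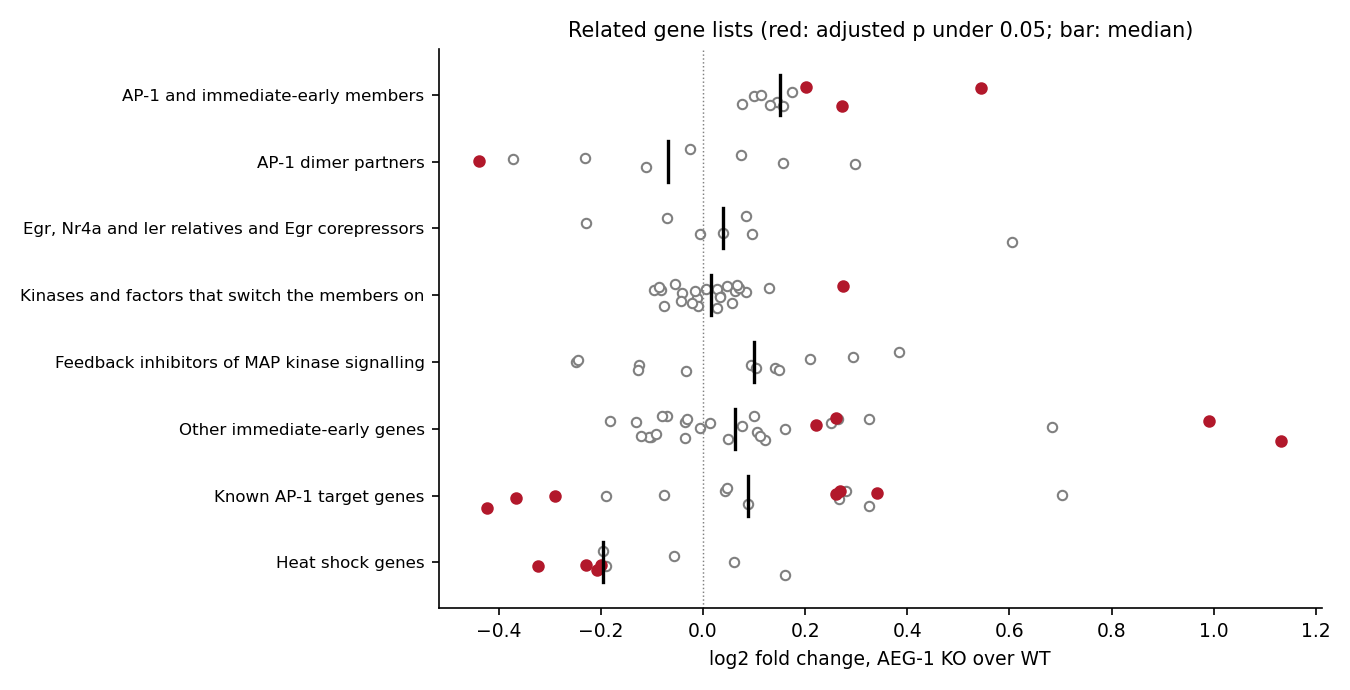
Log2 fold change between genotypes (positive where AEG-1 KO is higher) for the 10 members and the tested genes of the 7 lists, with called genes marked and the median of each list drawn. The members lie above 0 with a median of 0.15, most lists lie on both sides of 0, 7 of 9 heat shock genes lie below it, and Ccn1 and Ccn2 stand at the right among the other immediate-early genes.

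Markers of some other marrow cells, but not of all, moved with genotype beside the rises of Fos, Fosl2 and Nr4a1. Of all tested genes, 3.31% were called as higher and 3.04% as lower. Of the 8 macrophage markers, 3 were called higher and 1 lower. The 6 monocyte markers summed to 55.1 to 58.1 CPM in WT and 80.7 to 84.6 in AEG-1 KO, with 4 of 6 called higher. The 9 neutrophil markers summed to 105 to 129 and 161 to 196 CPM, with 5 of 9 called higher, although Mpo, Elane, Ly6g and Retnlg stayed under 1 CPM in every library. For mast cells, erythroid cells and megakaryocytes, 6 markers summed to 60.3 to 70.3 and 93.9 to 101 CPM; 1 of them, the platelet factor gene Pf4, was called higher, 4 were under 1 CPM, and Mcpt4 was at 0. B cell markers summed to 36.6 to 39.7 and 35.8 to 41.7 CPM, with 1 of 5 called higher, dendritic cell markers to 1.91 to 4.12 and 2.0 to 3.19 CPM with 0 called, and each T or NK cell marker was under 1 CPM. The part of these cells in the values of Fos, Fosl2 and Nr4a1 was not tested.

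For 5 members, the genes with the most alike levels over the 6 libraries were sought among 13291 genes of at least 1 CPM, by Pearson's r of log2 CPM. Those nearest to Fos were Neurl3 (r = 0.992), H2-Q4 (0.990) and Osbpl11 (0.987). Aifm2 (0.992), Fbxo9 (0.990) and Tshz1 (0.990) were nearest to Nr4a1. For Junb they were Sf3b5 (0.997), Fbxl14 (0.996) and F8a (0.996), whose GC contents of 45.5%, 54.9% and 51.5% are below the 62.6% of Junb. For Jun they were ENSMUSG00000096807 (0.995), Smad6 (0.994) and Irf2bpl (0.994), of which Smad6 and Irf2bpl, at 60.8% and 59.96% GC, are above the 55.5% of Jun. For Egr1 they were 2510002D24Rik (0.995), Rfx3 (0.980) and 2900076A07Rik (0.979). Of these 15 genes, only H2-Q4 was itself called, at an adjusted p of 0.0335. With 6 points per gene and so many genes searched, values this high are a description of these libraries.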

How the data were processed

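Libraries of macrophage total RNA came from a TruSeq RNA kit (Illumina) and were read on a HiSeq3000, per the labels' protocols. In the deposited table are whole-number read counts per Ensembl gene for 6 libraries, per the file headers. The submitters' processing notes name FastQC 0.11.2, cutadapt 1.9, Subread, featureCounts 1.4.6-p4, edgeR 3.18.1, mm10 and GRCm38, without roles. For strand setting and multiply mapped reads, the choice is not given in the sources used here. GENCODE M21 gave symbols, positions and GC content, matched for 46488 of 46983 identifiers; the 37 mitochondrial genes had counts of 0.

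Counts were filtered with filterByExpr (minimum 10), scaled by TMM and tested with edgeR 4.0.16 (glmQLFit, legacy false; R 4.3.3) without covariates. Adjustment was by Benjamini-Hochberg over 16115 genes and called under 0.05. A standard error is the size of the fold change in log2 divided by the root of the F statistic. The prior count of log2 CPM was 2. Alternatives used DESeq2 1.42.0, limma 3.58.1 and mgcv 1.9.3 (smooth length and GC trend; 99.6% of tested genes had values). The stricter filter was 1 CPM in 3 libraries. The fit was tested on simulated data, where the share of false calls was above the 0.05 aimed at. BLAST+ 2.17.0 at 95% identity over 100 bases found no near-identical copy of a member beyond overlapping neighbours.

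The members and lists were chosen with earlier results of these data known. Genes named were Mtdh, the members, up to 4 called genes of smallest adjusted p per list (or 2 of smallest p), and the 3 most correlated genes for each of 5 members. Any others were chosen after their values were seen. A further marker is not reported here.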

Additional observations from a re-analysis of the deposited data

How the results depend on the processing

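Every member log2 fold change was refitted under 16 alternatives: scaling by RLE, by upper quartiles or by library totals alone, a stricter filter or none, DESeq2, limma-voom, a replicate block, the length and GC trend removed, both together, and each library left out. Of these 160 refits 130 kept direction and side of the threshold, 21 kept direction but missed 0.05, and 9 reversed. The 9 came with a library left out: WT replicate 1 or 2 or AEG-1 KO replicate 3 for Fosb, and WT replicate 3 or AEG-1 KO replicate 3 for Junb, Jund and Ier2. Over the 6 such fits Fosb ranged from -0.27 to 0.93, Junb from -0.11 to 0.56, Jund from -0.14 to 0.47 and Ier2 from -0.064 to 0.40. For Fosl2 the call was also lost with no filter on low counts (adjusted p = 0.0851). The cause was not tested.

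Same-numbered libraries of the genotypes did not deviate together (correlations -0.27, -0.17 and -0.25), and no library correlated best with its own number. These deviations still hold the GC trend, so they cannot decide whether same-numbered libraries shared an animal, day or culture. The labels do not say whether the replicate numbers pair the libraries. With a replicate block in the fit, the genes called went from 1023 to 227, the members from 3 to 0 and the genes of the 7 lists from 16 to 0. With the block and the length and GC trend removed, 1 member was called, Nr4a1 (adjusted p = 0.0198).

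With the trend alone removed 2311 genes were called, 42.6% of them higher against 52.1%, and 32 of the listed genes. DESeq2 called 1287 genes, the scalings 988 to 1014 with 48.5% to 52.7% higher. Leaving out 1 library left 380 to 1094 genes, 0 to 2 members and 7 to 19 listed genes. The gene count was 380 without AEG-1 KO replicate 2, 441 without WT replicate 2, 606 without AEG-1 KO replicate 3, and 667 without AEG-1 KO replicate 1; the listed genes fell to 7 without WT replicate 2 or AEG-1 KO replicate 2. All 10 members stayed above 0 under each scaling. Fosb, at 24 to 74 counts per library, had the widest interval of the 10.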

Other observations

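Among the other immediate-early genes, Cebpb and Cebpd, which encode transcription factors of inflammatory gene expression in macrophages, had the same order of libraries as Junb and Jund; they were picked after their values were seen. Cebpb, a single-exon gene of 67.2% GC, was read at 30.6, 18.3 and 11.5 CPM in WT and 12.5, 20.0 and 27.7 CPM in AEG-1 KO. WT replicate 1 was 1.41 log2 units above WT replicate 3, and AEG-1 KO replicate 3 was 1.15 above replicate 1. The log2 fold change between genotypes was -0.01 (adjusted p = 0.994). Cebpd, also a single-exon gene, had the same pattern at a GC content of 51.6%, with 33.4, 19.2 and 15.2 CPM in WT and 16.1, 24.0 and 28.2 CPM in AEG-1 KO and a log2 fold change of 0.01 (adjusted p = 0.987). Zfp36l1, which encodes an RNA-decay factor and has 49.0% GC, was at 14.7, 12.5 and 9.23 and 15.3, 20.6 and 22.6 CPM, with a log2 fold change of 0.68 and an adjusted p of 0.0516. These genes share exon bases with an opposite-strand gene, Cebpb 312 with Tmem189 (4156 to 5854 counts), Cebpd 562 with Spidr (1214 to 1729 counts) and Zfp36l1 1672 with Gm26669 (0 to 6 counts), and are uncertain because the strand setting is not given in the sources used here. Within each genotype the Zfp36l1 libraries came in the same order as those of Junb. What sets this order was not tested.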
